A study of Xenopus laevis with 16 samples.

Results

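RNA from Xenopus laevis animal caps in which GATA4-GR had been activated was compared with RNA from control animal caps at 2.5, 5 and 7.5 h. The comparison rested on 6 of the 16 libraries of the series, namely the 3 GATA4-GR libraries and the 3 control libraries of these hours, set against each other hour by hour. Animal caps are explants of pluripotent ectoderm cut from blastula embryos. Controls came from uninjected embryos. GATA4-GR explants came from embryos injected with mRNA for GATA4 fused to the part of the glucocorticoid receptor that binds hormone, and the fusion was switched on with dexamethasone when the explants were cut. The other libraries held animal caps with GATA4-GR+Dkk-1 or with Nodal5 at the same hours, and all 4 treatments at 24 h. GATA4-GR+Dkk-1 and Nodal5 were given by injection as well, so control was the only uninjected arm. Each library was made from pooled explants, with 1 library per treatment and hour. Because controls were uninjected, an effect of injection or of dexamethasone cannot be told apart from that of GATA4, and whether controls received dexamethasone was not stated.

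GATA4 is a zinc-finger transcription factor that binds GATA motifs in enhancers and promoters, and with GATA5 and GATA6 it acts in the formation of heart and endoderm. Animal caps left alone form epidermis, whereas GATA4 can direct them to heart. The receptor domain holds a fused factor inactive until its ligand is added, so that the hours count from a defined start. Dkk-1 is a secreted antagonist of Wnt signalling. Nodal5 is a secreted ligand of the TGF-beta family that induces mesoderm and endoderm.

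The values are estimated read counts per gene model. The 6 libraries held between 11339829 counts (GATA4-GR at 2.5 h) and 23310320 counts (control at 5 h), and between 33697 and 38424 gene models had at least some counts in a library. Gene models are known here by identifier alone, since 0 of the 54142 identifiers matched the gene name table used here. No gene names, gene groups or sequences are therefore given, and neither the injected GATA4 nor tissue markers were checked by name. X. laevis is allotetraploid, and reads of near-identical gene copies are shared out as fractions. A count that was not whole (by more than 1e-06) was present in at least 1 of the 6 libraries for 84.7% of the models that rose, 83.9% of those that fell and 80.8% of all models tested, and in a single library for 51.3% to 60.2% of the models tested. How far this comes from gene copies was not tested, and the split of counts between near-identical copies is uncertain.

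The first question was which transcripts differed between GATA4-GR and control animal caps over the 3 hours. With GATA4-GR, 2961 gene models rose and 3338 fell, out of 23633 with enough counts to be tested. Thus 12.5% of the models tested were called higher and 14.1% lower, and 47.0% of all calls were higher. Among the models that rose the median log2 fold change was 0.63 (median standard error 0.138), and among those that fell it was -0.52 (median standard error 0.114), against -0.00481 over all models tested. Calls came from edgeR's quasi-likelihood test with the hour as a block, at an adjusted p under 0.1 (Benjamini-Hochberg over all models tested), and 7749 models had an unadjusted p under 0.05. The error in this test is the variation of the effect between hours, drawn toward that of the other models. Each model has 2 residual degrees of freedom of its own, and 5.912 are borrowed from the other models. Whether the hours came from separate clutches of embryos was not stated, so the p-values measure only the spread between these 6 libraries. The standard errors given here were worked back from the fitted change and the statistic of this test. They hold the same borrowed error and are not the spread of a model's own hourly changes.

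The count of calls depended on a few choices. Without the 5 h libraries, whose names in the labels mark them as sequenced again in both arms, 1025 models were higher and 1353 lower, and without the 7.5 h libraries 1967 were higher and 2555 lower. A model without the hour gave 832 higher and 757 lower, and DESeq2 gave 1478 and 1831. A fit of all 12 libraries of these hours gave 2209 higher and 2122 lower, of which 1849 and 2010 were among the calls above.

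The increases reached further than the decreases. Of the models that rose, 1096 (37.0%) changed at least 2-fold, 589 at least 4-fold and 224 at least 16-fold. Of those that fell, 973 (29.1%) changed at least 2-fold, 272 at least 4-fold and 7 at least 16-fold. The steepest fitted changes were 10.9 and -5.80 on the log2 scale. Neither of these models met the rule on direction and counts given below, under which the steepest were 10.01 and -3.83. At the other end, changes under 1.5-fold made up 1426 (48.2%) of the increases and 1816 (54.4%) of the decreases. At most 9 counts in every control library were found for 229 increases, and in every GATA4-GR library for 176 decreases. The fold changes of these models rest on few counts, and a fall is limited by the level in control. When the change itself was tested against 2-fold with edgeR's glmTreat, 648 models were higher and 402 lower by more than that (adjusted p under 0.1), which raised the share of higher calls from 47.0% to 61.7%.

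**Figure D1:**
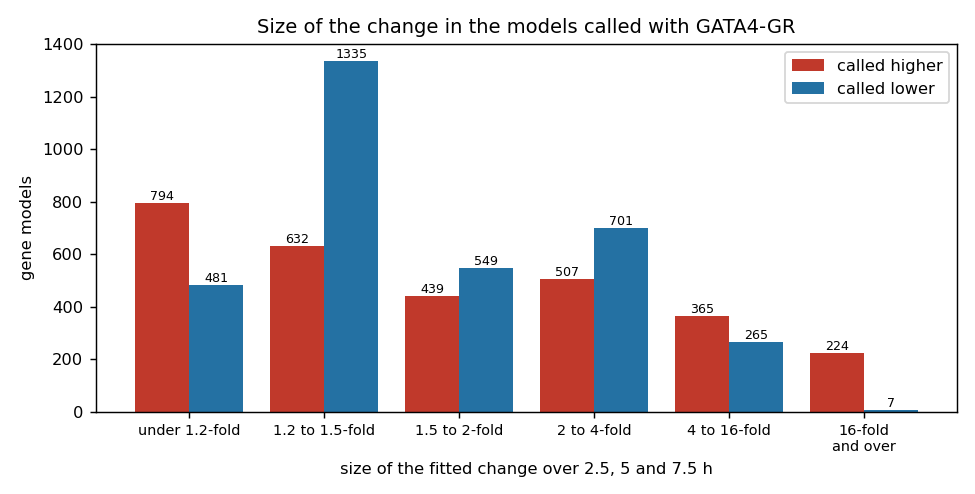
Number of gene models (y axis) by the size of the fitted change over 2.5, 5 and 7.5 h (x axis), for models called higher (red) and lower (blue) with GATA4-GR. Changes of 16-fold and over were held by 224 models called higher and 7 called lower, while changes of 1.2 to 1.5-fold were held by 632 and 1335.

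Both sets of libraries were apart for most of these models. CPM, the count scaled to a common library size, was higher in all 3 GATA4-GR libraries than in any control library for 2730 (11.6%) of all models tested, and lower in all 3 for 2399 (10.2%). The same held for 1867 (63.1%) of the models called higher and 1750 (52.4%) of those called lower, and for 562 of the 589 models raised at least 4-fold and 259 of the 272 reduced at least 4-fold. These values chose the models, so they are given as a description.

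Levels went with the size of the change. In models that rose at least 4-fold, the median level in control was 0.486, 0.557 and 0.718 CPM at 2.5, 5 and 7.5 h, and with GATA4-GR it was 3.57, 8.49 and 12.3 CPM. In models that fell at least 4-fold, the median level in control was 3.75, 3.92 and 4.83 CPM, and with GATA4-GR it was 0.522, 0.570 and 0.878 CPM. The median strong increase thus began under 1 CPM, and the median strong decrease ended there. Enough counts in the higher arm alone let a model be tested, and a low level in the other arm favours a large fold change. These levels were thus set in part by how the models were chosen, and are given as a description. Over all models that rose, the median in control was 9.30, 9.77 and 11.4 CPM and with GATA4-GR 16.5, 23.8 and 27.9 CPM. Over all that fell, it was 26.4, 26.3 and 23.7 CPM in control and 18.0, 15.9 and 15.3 CPM with GATA4-GR.

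Models with many counts were called often but changed little. CPM is not corrected for transcript length, so a high level here is a high count. Among the 2528 models with a mean over 100 CPM in the 6 libraries, 22.5% were called higher and 15.3% lower, with median log2 fold changes of 0.19 and -0.27. Of these calls, 10 increases and 39 decreases reached 2-fold. Among the 8553 models between 1 and 10 CPM, 12.4% were called higher and 11.2% lower, with median log2 fold changes of 1.32 and -1.04. There 668 increases and 505 decreases reached 2-fold. Between 10 and 100 CPM (10438 models), the shares were 11.1% and 17.2% and the medians 0.38 and -0.39. In the 2114 models under 1 CPM, 7.95% were called higher and 9.37% lower, with medians of 1.62 and -1.75. A small change passes the test more readily where counts are high, so these shares are not to be read as shares of models affected.

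**Figure D2:**
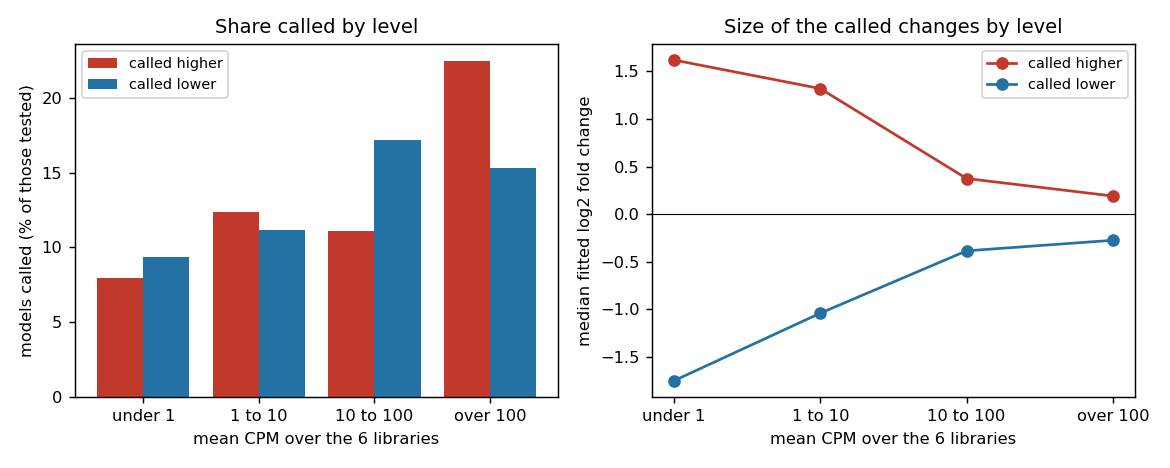
Left, percentage of the models tested that were called higher (red) or lower (blue), by mean CPM over the 6 libraries; right, median fitted log2 fold change of the called models in the same bins. Models over 100 CPM were called higher most often (22.5%), with a median change of 0.19.

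Few of the called models were silent in 1 arm. Of the models that rose, 9 had no counts in any control library and between 9 and 294 counts in a GATA4-GR library. Set against a floor of 3 counts over the 3 control libraries together, they were at least 16.4-fold to at least 267-fold higher, and the median over all models that rose stayed at 0.63 with these models at their bounds. At most 3 counts in every control library were found for 80 models that rose, and at most 9 for 229. By contrast 2049 (69.2%) reached 50 counts or more in a control library. Of the models that fell, 0 had no counts in every GATA4-GR library, 23 had at most 3, 176 had at most 9, and 2603 (78.0%) reached 50 or more.

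The models that rose took up 15.3%, 15.7% and 17.0% of all counts in the control libraries at 2.5, 5 and 7.5 h, and 19.8%, 21.7% and 22.7% in the GATA4-GR libraries. The models that fell took up 19.4%, 19.4% and 18.6% in control and 14.9%, 13.6% and 13.3% with GATA4-GR. The models were chosen from these same libraries, so the direction of these shares was fixed by the choice. In bulk RNA of explants, fewer cells that hold a transcript and less of it per cell cannot be told apart.

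A few models are given in each library. They were picked by a rule on the called models: 1 direction at all 3 hours, at least 50 counts in every library of the higher arm and at least 10 in every library of the lower arm, and then the 2 models in each direction with the steepest fitted change. The rule was open to 1940 models that rose and 2629 that fell. Their fitted changes and p-values come from the libraries that picked them and do not allow for that choice. What these models encode is not known here.

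Xelaev16069764m.g had 223, 182 and 307 counts in control at 2.5, 5 and 7.5 h, and 150522, 232439 and 195921 counts with GATA4-GR. The arms were far apart at each hour, at 7.73 to 16.8 CPM against 12180 to 14600 CPM. It held more counts than any other model in each GATA4-GR library of these 3 hours, 1.33%, 1.46% and 1.2% of all counts. Its fitted log2 fold change was 10.01 (1030-fold, standard error 0.264, adjusted p = 5.27e-07, edgeR, as for the calls). It had 269885, 317246 and 215386 counts with GATA4-GR+Dkk-1 and 440, 505 and 370 with Nodal5, so the libraries labelled with GATA4-GR stood apart from the others. Whether its counts came from the injected mRNA or from a gene of the explants was not tested, so it is not to be read as an induced gene. Leaving this model out of scaling and fit gave 2968 models higher and 3342 lower.

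Xelaev16029520m.g had 14, 25 and 34 counts in control and 371, 1518 and 2226 with GATA4-GR. The level in control was 0.963, 1.06 and 1.86 CPM, and with GATA4-GR it went up with the hour from 32.0 to 95.3 and 138 CPM. Its fitted log2 fold change was 6.11 (69.3-fold, standard error 0.179, adjusted p = 8.94e-07, edgeR's quasi-likelihood test). Hour by hour the log2 fold change was 4.89, 6.34 and 6.13. The change was large at the first hour sampled, and both arms were apart at all 3. The rule that picked the model favours both.

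Xelaev16023535m.g had 223, 651 and 576 counts in control and 11, 25 and 44 with GATA4-GR. Its level in control was 15.3, 27.7 and 31.5 CPM, against 0.949, 1.57 and 2.73 CPM with GATA4-GR. Its fitted log2 fold change was -3.83 (14.3-fold lower, standard error 0.163, adjusted p = 4.31e-06, edgeR's quasi-likelihood test). At 24 h the order was turned, with 122 counts in control and 1851 with GATA4-GR.

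Xelaev16072380m.g had 1351, 5536 and 4733 counts in control and 57, 155 and 519 with GATA4-GR. Its level was 93.0, 235 and 259 CPM in control and 4.92, 9.74 and 32.3 CPM with GATA4-GR, so that all 3 control libraries lay above all 3 GATA4-GR libraries. Its fitted log2 fold change was -3.80 (14.0-fold lower, standard error 0.268, adjusted p = 5.06e-05, edgeR's quasi-likelihood test). This model too was higher with GATA4-GR at 24 h, with 3351 counts against 1312 in control.

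**Figure D3:**
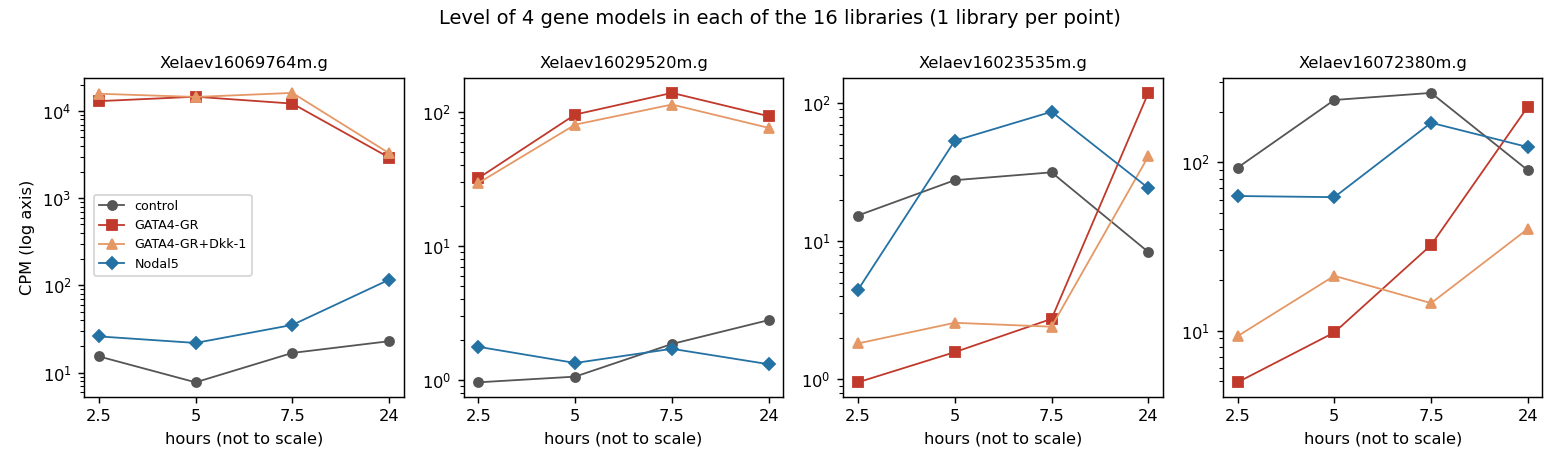
CPM (log axis) of the 2 gene models with the steepest rise and the 2 with the steepest fall that met the rule, at each of the 4 hours in control (grey), GATA4-GR (red), GATA4-GR+Dkk-1 (orange) and Nodal5 (blue) animal caps; each point is 1 library. Xelaev16069764m.g lay between 12180 and 14600 CPM with GATA4-GR up to 7.5 h and at 2926 CPM at 24 h, and both models that fell stood above control with GATA4-GR at 24 h.

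The second question was how early the changes were present. Each hour holds 1 library per arm, so changes at 1 hour are described with no test, as differences of log2 CPM (prior count 2). At 2.5 h, 1049 (4.44%) of all models tested were at least 2-fold higher with GATA4-GR and 1320 (5.59%) at least 2-fold lower. The counts were 1411 (5.97%) and 1166 (4.93%) at 5 h, and 1388 (5.87%) and 1090 (4.61%) at 7.5 h. Lower models were thus in the majority at 2.5 h and higher models at 5 and 7.5 h. The GATA4-GR library at 2.5 h held the fewest counts of the 6 (11339829), and its part in this was not tested. The median log2 fold change over all models was -0.0242, -0.00177 and 0.00512 at these hours.

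The models called higher had median log2 fold changes of 0.37, 0.63 and 0.65 at 2.5, 5 and 7.5 h. Of them 816 (27.6%), 1110 (37.5%) and 1125 (38.0%) were at least 2-fold higher at these hours. The models called lower had medians of -0.46, -0.58 and -0.50, and 844 (25.3%), 952 (28.5%) and 893 (26.8%) were at least 2-fold lower. By the median both were smallest at 2.5 h, and the decreases differed less between the hours than the increases.

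**Figure D4:**
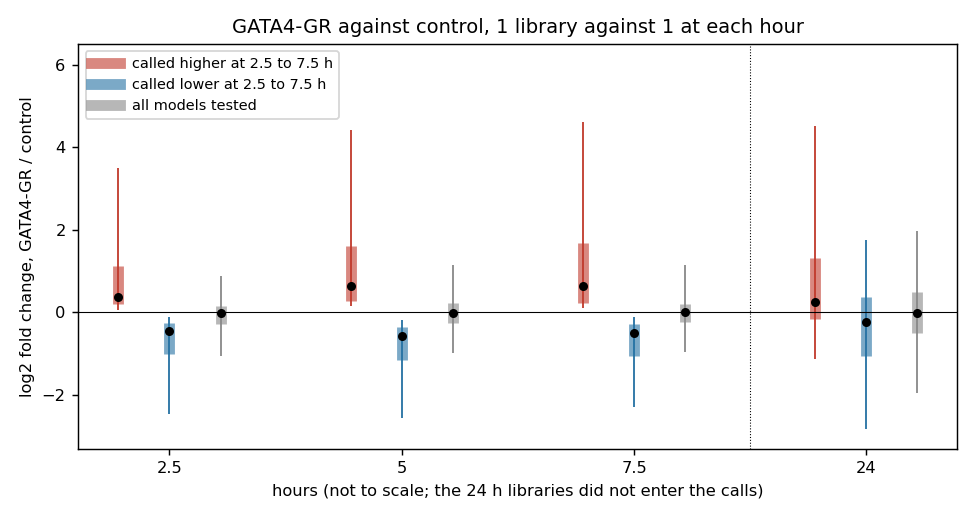
Log2 fold change of the GATA4-GR library against the control library of the same hour, for models called higher (red), models called lower (blue) and all models tested (grey). Points are medians, thick bars the quartiles and thin lines the range from the 5th to the 95th percentile over models; medians of the models called higher were 0.37, 0.63 and 0.65 at 2.5, 5 and 7.5 h and 0.25 at 24 h.

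Changes of at least 2-fold were first reached at each of the 3 hours. Over all models tested, 2088 were at least 2-fold higher at 1 hour or more, 1049 (50.2%) of them at 2.5 h, and 2058 were at least 2-fold lower, 1320 (64.1%) of them at 2.5 h. Of the 1350 called increases that reached 2-fold at any hour, 816 (60.4%) did so at 2.5 h, 384 first at 5 h and 150 first at 7.5 h. Of the 1237 such decreases, 844 (68.2%) were there at 2.5 h, 288 first at 5 h and 105 first at 7.5 h. A change of at least 2-fold at all 3 hours was held by 673 models that rose and 529 that fell. Models at least 2-fold changed at 2.5 h but under that at 7.5 h numbered 95 among the called increases and 243 among the called decreases. Over all models tested they numbered 318 of the 1049 that were higher at 2.5 h. Of the 1320 that were lower at 2.5 h they numbered 703, and many of these were not among the calls. Each is a gap of 1 library against 1, and whether it was a change that did not last was not tested. For the models with a fitted change of 4-fold or more, 540 of 589 increases (91.7%) and 262 of 272 decreases (96.3%) were past 2-fold at 2.5 h. The calls and the fitted changes include the 2.5 h libraries and favour effects alike over the hours, so the shares among called models were set in large part by how the models were chosen.

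The change was most often largest at 7.5 h among the strong increases and at 5 h among the strong decreases. Among the 589 strong increases it was 2.5 h for 96 models, 5 h for 183 and 7.5 h for 310. Among the 272 strong decreases it was 2.5 h for 71, 5 h for 147 and 7.5 h for 54. Over all called models, 601, 1189 and 1171 increases and 892, 1538 and 908 decreases were largest at 2.5, 5 and 7.5 h. A steady growth of the log2 fold change with the hour was found in 882 increases and a steady decline in 374. In the decreases the size grew steadily in 595 models and shrank steadily in 535. The libraries that chose the models also gave these counts, so the counts are a description. Leaving out the 5 h libraries left 1025 models called higher and 1353 lower. Whether the choice of models favours 5 h as the hour of the largest change was not tested. The same counts over all models tested are not given, so no excess over a random order of the hours is claimed.

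Within a model the effect was often alike from hour to hour. The same sign at all 3 hours was found in 2884 models that rose and 3304 that fell, and at 2 of 3 hours in 77 and 34. The gap between the highest and lowest hour had a median of 0.43 (log2) in the increases and 0.37 in the decreases. It was under 0.5 in 1622 (54.8%) of the increases and 2120 (63.5%) of the decreases, and over 2 in 212 (7.16%) and 64 (1.92%). The test favours models whose effect is alike over the hours, so these values describe what it selected. Over all models tested, 82 (0.347%) were at least 2-fold higher at one hour and at least 2-fold lower at another, at a median of 16.6 counts, and 1 of them was called.

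The arms also changed with time by themselves. From 2.5 to 7.5 h, 1720 (7.28%) of all models went up at least 2-fold in control and 2942 (12.4%) in GATA4-GR animal caps. Among the models called higher these counts were 406 (13.7%) in control and 827 (27.9%) with GATA4-GR. Among the models called lower, 328 (9.83%) went up and 229 (6.86%) down at least 2-fold in control. With GATA4-GR these were 409 (12.3%) and 314 (9.41%). Over all models, 920 (3.89%) went down at least 2-fold in control and 1056 (4.47%) with GATA4-GR. Models that rose with GATA4-GR thus also included some that went up in control over the same hours.

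A change of the effect with the hour was tested as a slope of the log2 fold change per hour. All 12 libraries of the 4 treatments at 2.5 to 7.5 h were used, since the 6 libraries alone leave too little to estimate the spread. The log2 fold change went up with the hour for 15 of 25296 models (0.0593%) and down for 5 (0.0198%), with 1648 at an unadjusted p under 0.05 (edgeR's quasi-likelihood test, adjusted p under 0.1). The 15 had median log2 fold changes of -0.14, 2.04 and 3.24 at 2.5, 5 and 7.5 h, with slopes from 0.38 to 1.83 per hour, and 10 of them were called higher over the 3 hours. The 5 had medians of 2.16, 1.24 and 0.28, with slopes from -0.53 to -0.22, and 3 were called higher and 1 lower. With the 6 libraries alone the counts were 202 and 121, which included all 15 and all 5.

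The third question was what the called models did at 24 h. The 24 h libraries took no part in the calls, and with 1 library per arm no test is given. At 24 h, 3021 (12.8%) of all models tested were at least 2-fold higher and 3315 (14.0%) at least 2-fold lower with GATA4-GR. Of the models that rose earlier, 1905 (64.3%) were above control at 24 h, against 49.5% of all models, and 877 (29.6%) were so by 2-fold, while 175 (5.91%) were at least 2-fold lower. Their median log2 fold change was 0.25. Of the models that fell earlier, 2001 (59.9%) were below control, 882 (26.4%) by 2-fold, while 356 (10.7%) were at least 2-fold higher. Their median was -0.23, against -0.01 for all models.

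What was still seen at 24 h went with the size of the earlier change. Of the 589 models raised at least 4-fold, 507 (86.1%) were above control at 24 h and 419 (71.1%) at least 2-fold, with a median log2 fold change of 2.56. Of those raised 2 to 4-fold, 72.2% were above control, and of those raised by less, 55.3%. Of the 272 models reduced at least 4-fold, 202 (74.3%) were below control at 24 h and 145 (53.3%) at least 2-fold, with a median of -1.30. The shares were 69.6% for those reduced 2 to 4-fold and 55.4% for the rest. For the smaller changes, the share was therefore not far from 50.3%, the share of all models that lay below control. At least 2-fold changes in the opposite direction were found for 28 (4.75%) of the strong increases and 31 (11.4%) of the strong decreases. Over all models tested, 14.0% were at least 2-fold lower and 12.8% at least 2-fold higher at 24 h.

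The 4 models given above split by direction. Xelaev16069764m.g was still raised at 24 h, with a log2 fold change of 7.02, and Xelaev16029520m.g with 5.01. Xelaev16023535m.g was at 3.84 and Xelaev16072380m.g at 1.29, each opposite to its earlier fall. For Xelaev16072380m.g, GATA4-GR+Dkk-1 stood at 40.3 CPM at 24 h, below the 89.7 CPM of control, while GATA4-GR was at 215 CPM.

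The last question was where GATA4-GR differed from the other treatments at the same hours. The treatments share the control libraries, so their changes against control are set side by side and the difference is tested between the treated libraries. For the 589 strong increases, the median log2 fold changes at 2.5, 5 and 7.5 h were 2.64, 3.24 and 3.47 with GATA4-GR, 2.23, 2.92 and 3.24 with GATA4-GR+Dkk-1, and 0.08, 0.03 and 0.34 with Nodal5. For the 272 strong decreases they were -2.40, -2.72 and -2.29 with GATA4-GR, -2.21, -2.30 and -2.85 with GATA4-GR+Dkk-1, and -1.35, -0.84 and -0.90 with Nodal5. With Nodal5 the increases were thus near 0 at the median, and the decreases were partly present. Injection was common to these treatments and absent in control, and its part was not tested. The models were chosen on the GATA4-GR and control libraries, which favours larger medians with GATA4-GR than with the other treatments. The same control libraries serve the other treatments, which favours medians there in the direction of GATA4-GR.

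**Figure D5:**
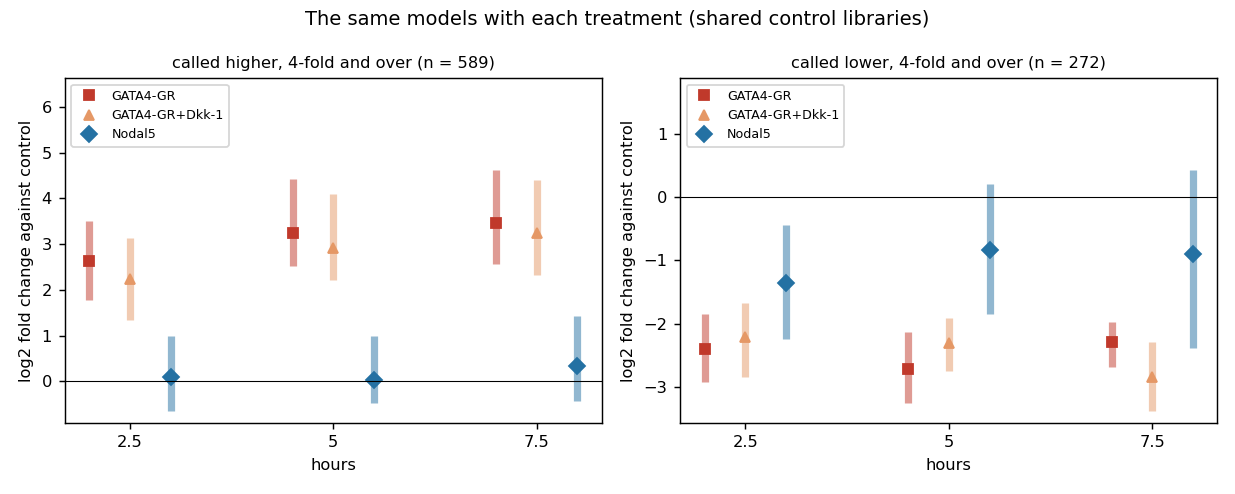
Log2 fold change against the shared control libraries at 2.5, 5 and 7.5 h with GATA4-GR (red squares), GATA4-GR+Dkk-1 (orange triangles) and Nodal5 (blue diamonds), for the 589 models raised (left) and the 272 reduced (right) at least 4-fold by GATA4-GR. Symbols are medians and bars the quartiles over models; with Nodal5 the medians were between 0.03 and 0.34 on the left and between -1.35 and -0.84 on the right.

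Nodal5 was higher than GATA4-GR in 4200 (16.6%) and lower in 3290 (13.0%) of 25296 models (12 libraries, edgeR's quasi-likelihood test with the hour as a block, adjusted p under 0.1). Of the models that GATA4-GR raised, 1659 (56.0%) were lower with Nodal5 and 77 higher. Of those it reduced, 1797 (53.8%) were higher with Nodal5 and 103 lower. Among the strong changes these were 518 of 589 (87.9%) and 165 of 272 (60.7%). The GATA4-GR libraries that chose the models are also in this contrast, so the counts are a description. The p-values of the named models do not allow for that choice either. The difference (Nodal5 minus GATA4-GR, log2) was -8.95 for Xelaev16069764m.g, -5.59 for Xelaev16029520m.g, 4.51 for Xelaev16023535m.g and 2.80 for Xelaev16072380m.g, with adjusted p = 1.19e-07, 3.72e-06, 0.00106 and 0.00112 (edgeR's quasi-likelihood fit). Without the 5 h libraries 1581 models in all differed between Nodal5 and GATA4-GR, and with the libraries of these treatments alone 3014, against 7490.

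GATA4-GR+Dkk-1 was higher than GATA4-GR in 1 model (0.00395%) and lower in 0 (0%) of 25296, with 2654 at an unadjusted p under 0.05 (12 libraries, edgeR). For the 4 models the difference (GATA4-GR+Dkk-1 minus GATA4-GR, log2) was 0.21 for Xelaev16069764m.g, -0.23 for Xelaev16029520m.g, 0.51 for Xelaev16023535m.g and 0.21 for Xelaev16072380m.g, with adjusted p = 0.713, 0.746, 0.827 and 0.883. The spread between libraries was a biological coefficient of variation of 0.137 over the 12 libraries and 0.0877 in the 6 of GATA4-GR and control. With the libraries of these treatments alone, 2318 models were higher and 1536 lower, 3854 in all or 16.3% of those tested, among them 841 (28.4%) of the models GATA4-GR raised and 1266 (37.9%) of those it reduced. The GATA4-GR libraries that chose these models are also in this contrast, so the shares among them are a description. Whether the treatments act alike is not shown by either count. A model besides the 4 named ones, chosen after its values were seen, had 241653, 304510 and 215807 counts with GATA4-GR+Dkk-1. Whether it is the 1 model called higher in the 12 libraries is not given here. It had 198, 52 and 499 with GATA4-GR, 189, 32 and 144 in control and 692, 613 and 187 with Nodal5. This set the libraries labelled with Dkk-1 apart from those without. Whether its counts came from injected mRNA was not tested.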

How the data were processed

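Poly(A) RNA of X. laevis animal caps was sequenced by the study in paired-end, strand-marking libraries. The authors aligned reads to JGI gene models with Bowtie and estimated counts with RSEM (versions not given in the sources used here). The deposited table holds the expected counts with no normalization, which were rounded to whole numbers here. Groups came from the labels. Models were filtered with edgeR's filterByExpr (minimum count 10), libraries scaled by TMM and calls made with edgeR 4.0.16 in R 4.3.3 (quasi-likelihood, hour and treatment as terms, 2 residual degrees of freedom). Alternatives used DESeq2 1.42.0, limma 3.58.1, other filters, size factors, thresholds and library sets. All 0.1 thresholds are on adjusted p. The rule for named models is stated with them. On data simulated with a spread set for each model, the share of false calls in the fit of 6 libraries exceeded the threshold. The counts of calls may thus hold more false calls than the threshold states. Total counts limit counting error only. Members and lists were chosen with earlier results of these data known. The leaving out of 1 abundant model and of models under 50 counts in every library was added after seeing the data. The gene lists planned by name were not used, as no identifier matched a name.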

Additional observations from a re-analysis of the deposited data

Results flagged for a closer look

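Results here stood out because the effect of GATA4-GR differed between hours. By the tested slope, the log2 fold change against control went up with the hour for 15 gene models and down for 5 (edgeR's quasi-likelihood test, adjusted p under 0.1). Xelaev16023535m.g fell at 2.5, 5 and 7.5 h (log2 fold changes of -3.85, -4.04 and -3.47) and was higher than control at 24 h, with a log2 fold change of 3.84. Xelaev16072380m.g likewise fell at the earlier hours (log2 fold changes of -4.21, -4.58 and -3) and stood at 1.29 at 24 h. For both models the difference between 24 h and the earlier hours was not tested, since 24 h has 1 library per arm.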

How the results depend on the processing

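The main comparison gave 2961 models higher and 3338 lower. DESeq2 gave 1478 and 1831, glmTreat against 2-fold 648 and 402, and no replicate block for the hour 832 and 757, with 4 in place of 2 residual degrees of freedom. A fit of the 12 libraries gave 2122 lower and 2209 higher. Leaving out 1 hour gave 1025 to 2896 higher and 1353 to 3435 lower, the fewest without 5 h, where 1011 and 1332 were shared with the full fit. limma-voom (3205 and 3497), median-of-ratios size factors (2867 and 3422), no filter (3479 and 4247), at least 1 CPM in 3 libraries (2748 and 3152), an adjusted p of 0.05 (2049 and 2367) and leaving out models under 50 counts in every library (2645 and 3000) stayed within 1.5 times of the full fit. As for the hour as a block, same-hour libraries deviated together at 2.5 h (r = 0.6) and 7.5 h (r = 0.615) but hardly at 5 h (r = 0.0495). For the slope, the 6 libraries alone gave 202 and 121 in place of 15 and 5. With the libraries of the compared treatments alone, 3854 models differed between GATA4-GR+Dkk-1 and GATA4-GR in place of 1, and 3014 between Nodal5 and GATA4-GR in place of 7490. Leaving out 1 hour gave 1 model for the former at each hour and 1581 to 8941 for the latter. A 4-fold limit at 1 hour gave 784, 929 and 898 models at 2.5, 5 and 7.5 h, in place of 2369, 2577 and 2478 at 2-fold. The 4 named models kept their direction and their call in each of these alternatives that tested them. They were picked as the steepest calls with 1 direction in the same libraries, so this was favoured by the choice. The causes of these differences were not tested. With 1 library per treatment and hour, the spread within an hour is unknown.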
